A study of Mus musculus with 96 samples.

Results

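Stella-positive cells were chosen by the raw count of Dppa3, the gene that encodes Stella: single mouse embryonic stem cells with at least 1 count were positive and those with a count of 0 were negative. Of 61 serum/LIF cells with counts (76 are labelled), 13 were Stella-positive and 48 were Stella-negative, among 96 samples labelled in the series. Because the Dppa3 count chose the groups, the difference in its level between them is given as a description, and Dppa3 was left out of the genes tested. All 61 cells were of the E14 line, labelled wild-type with a C57BL/6 background, and were grown in serum with leukaemia inhibitory factor (LIF). The labels name no Stella reporter, so Stella status here is the presence of reads and not of protein. The series parted messenger RNA from DNA of each cell by the G&T-seq protocol, to set transcription beside DNA methylation. The 16 samples labelled 2i and the 4 labelled as empty wells were not used here. The labels name no separate cultures, so each p-value measures the spread between cells only.

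Stella, also called PGC7, is a small protein of oocytes, early embryos, naive embryonic stem cells and primordial germ cells. In the early embryo it protects DNA methylation of the maternal genome from loss, and when abundant it can hold back Uhrf1, the partner of the maintenance methyltransferase Dnmt1. Embryonic stem cells in serum are known to be a mixture in which some cells transcribe Dppa3 and others do not, and the gene is a common marker of the naive, inner cell mass-like state. Dppa3 lies beside Nanog and Gdf3, in a stretch of chromosome 6 that holds several pluripotency genes.

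The Dppa3 gene is annotated as protein-coding on the plus strand of chromosome 6, from 122626410 to 122630272 in GRCm38. The 13 positive cells made up 21.3% of the 61 cells (95% Wilson interval 12.9% to 33.1%, counting error only). Their levels covered a wide range, from 0.172 to 502 CPM (counts scaled to a total of 1000000 per cell), with a median of 64.9 CPM. The highest were the cells in wells D05 (502 CPM), E01 (422 CPM) and H10 (326 CPM), which together held 72.5% of all 6616 Dppa3 counts. Next came F05 (126 CPM), B05 (113 CPM), H03 (77.4 CPM), E05 (64.9 CPM) and C07 (61.3 CPM). The others were F07 (17.6 CPM), E10 (11.8 CPM), C04 (3.04 CPM), D04 (0.735 CPM) and A09 (0.172 CPM). Thus 8 cells lay above 50 CPM and 5 lay well below it.

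The cells nearest the threshold were A09 with 1 count and D04 with 4 counts, against 0 counts in every negative cell. In a negative cell, a count of 0 allows a level of up to 3 counts by counting error alone. This is 0.442 to 1.24 CPM depending on the cell's depth, and the levels of both these positive cells lie below or within that range. When every cell was thinned to the lowest total, 12 cells stayed positive. Positive cells came from all over the plate, 6 of 33 cells in rows A to D and 7 of 28 in rows E to H. A processed pseudogene of Dppa3 on chromosome X, Dppa3-ps, had 1 to 14 counts in 7 of the 13 positive cells and none in the 48 negative cells. The pseudogene shares sequence with its parent, so reads of one may have been counted for the other, and its counts are uncertain.

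The 61 cells had total counts of 2417702 to 6787261 (median 4244480). The total count was 4087131 ± 1042396 in positive and 4321435 ± 1011784 in negative cells (mean ± SD, n = 13 and 48), and the numbers of genes detected were 8101 ± 1030 and 8414 ± 826. Neither difference passed a two-sided permutation test adjusted over 5 cell measures (adjusted p = 0.586 and 0.430). Positive cells did have a lower share of counts from genes of chromosome 14, 2.58% ± 0.641 against 3.14% ± 0.291 (permutation p = 0.00012, adjusted p = 0.0006). This share ranged from 1.32% to 3.43% in positive cells, with a median of 2.80%, and from 2.08% to 3.75% in negative cells, with a median of 3.10%, so the groups overlapped. Mitochondrially encoded transcripts took 2.49% ± 1.08 of counts in positive and 1.88% ± 0.650 in negative cells (permutation p = 0.0154, adjusted p = 0.0384). Both shares are drawn in the plot of chromosome 14 and mitochondrial shares.

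**Figure D1:**
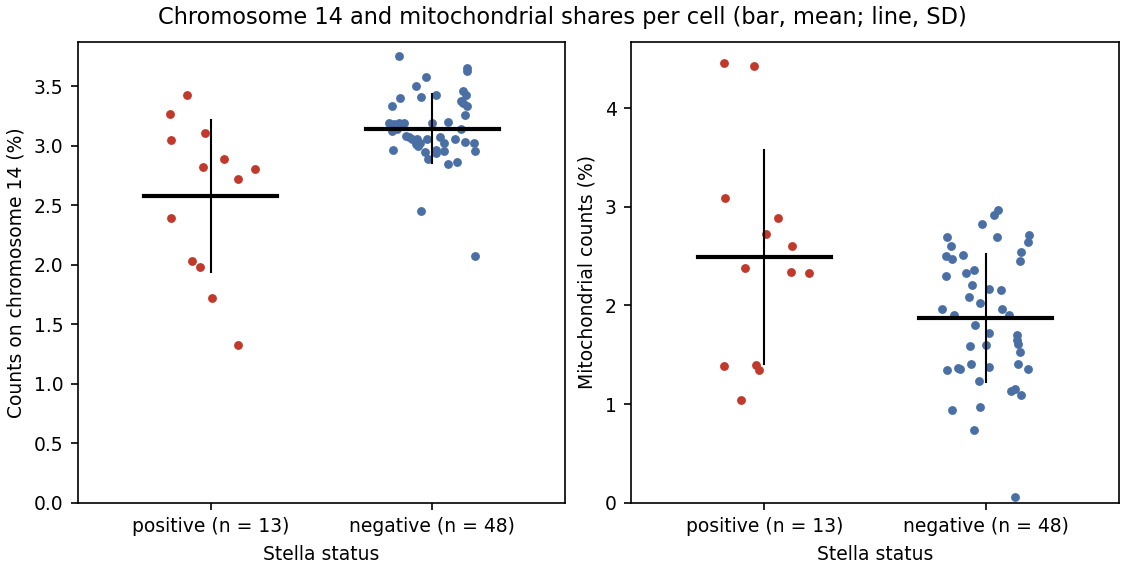
Share of counts from chromosome 14 genes (left, percent) and from mitochondrially encoded genes (right, percent) in 13 Stella-positive and 48 Stella-negative cells, 1 point per cell, with the mean as a bar and the SD as a line. Of the 5 cells with the lowest chromosome 14 shares, 4 were Stella-positive, at 1.32% to 2.03%; the highest mitochondrial shares were those of positive cells, up to 4.45%.

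The low end of the chromosome 14 measure was made up mostly of Stella-positive cells. Counting cells more than 3 scaled median absolute deviations below the median, a limit of 2.31%, gave 5 cells. Of these, 4 were positive, E01 (1.32%), H10 (1.72%), B05 (1.98%) and H03 (2.03%), and 1 was negative, F01 (2.08%). Without these 5 cells the difference in share was -0.224 percentage points and did not pass (adjusted p = 0.110). In plate rows A to D it was -0.297 points (6 against 27 cells, permutation test, adjusted p = 0.283), and in rows E to H it was -0.801 points (7 against 21 cells, permutation test, adjusted p = 0.0104). The mitochondrial difference did not pass without the 5 cells either (0.424 points, adjusted p = 0.310), nor within rows A to D (0.531 points, 6 against 27 cells, permutation test, adjusted p = 0.418) or rows E to H (0.638 points, 7 against 21 cells, permutation test, adjusted p = 0.154). The mitochondrial difference also did not pass without the cells in B10 and F07, picked for having the fewest genes detected and the highest mitochondrial share (0.452 points, adjusted p = 0.155). With positive cells taken at 10 or more Dppa3 counts (11 against 50 cells) both differences passed and were larger, -0.695 points for chromosome 14 (adjusted p = 0.0001) and 0.880 points for the mitochondrial share (adjusted p = 0.0022).

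Gene by gene, the lower chromosome 14 signal was spread over many genes. Of 380 tested genes on this chromosome, 266 (70%) had a negative difference between positive and negative cells, with a median of -0.36 on the log2 scale. The median over all 10867 tested genes was -0.06, and medians of the other autosomes lay between -0.16 and 0.06. The X chromosome came next, with a median of -0.29 over 403 genes. Without the 5 low cells the chromosome 14 median was -0.18 over 375 genes, against -0.07 over all 10681 genes then tested. The part that these chromosome 14 values play in the differences of single genes was not tested beyond leaving the 5 cells out.

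No single gene passed the test between Stella-positive and Stella-negative cells. In edgeR's quasi-likelihood test, which adjusted for how many genes each cell had detected, 0 of 10867 genes (0.0%) had an adjusted p under 0.05, and the smallest adjusted p was 0.0949. At an unadjusted p under 0.05 there were 546 genes (5.02%), 125 higher (1.15%) and 421 lower (3.87%) in positive cells. Over all tested genes, 46.5% of differences were above 0. The limma-trend test also called 0 genes (834 at an unadjusted p under 0.05), and the DESeq2 Wald test called 102 (0.939%), 1 higher and 101 lower. Among those 102, 69 had counts in 0 or 1 positive cells. A gene entered the tests if 10 or more cells each had 10 or more counts of it, so a gene seen only in positive cells needed 10 of the 13, whereas one seen only in negative cells needed 10 of the 48. Sparse genes could therefore enter more easily on the lower side.

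The naive pluripotency genes, which mark the state of the inner cell mass, had the highest median difference of the gene lists examined. Of 22 listed genes 16 were tested, none was called, and 13 had positive differences, with a median of 1.33. This median includes the 5 cells low in chromosome 14 counts, 4 of them positive. Without those cells most members still tested had lower differences, Klf4 for example 0.77 instead of 2.05. Only Zfp42, Tdh, Nanog and Klf5 had higher ones, Zfp42 for example 3.14 instead of 2.72. At an unadjusted p under 0.05, 4 of the 16 were higher and 0 were lower, against 1.15% of all tested genes higher. The 4 were Zfp42, Esrrb, Klf2 and Nr0b1. The 6 listed genes that failed the filter, among them Tbx3, Tcl1, Pecam1 and Prdm14, were seen in too few cells. The naive list was chosen with earlier results of these cells known, so its counts describe these cells.

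**Figure D2:**
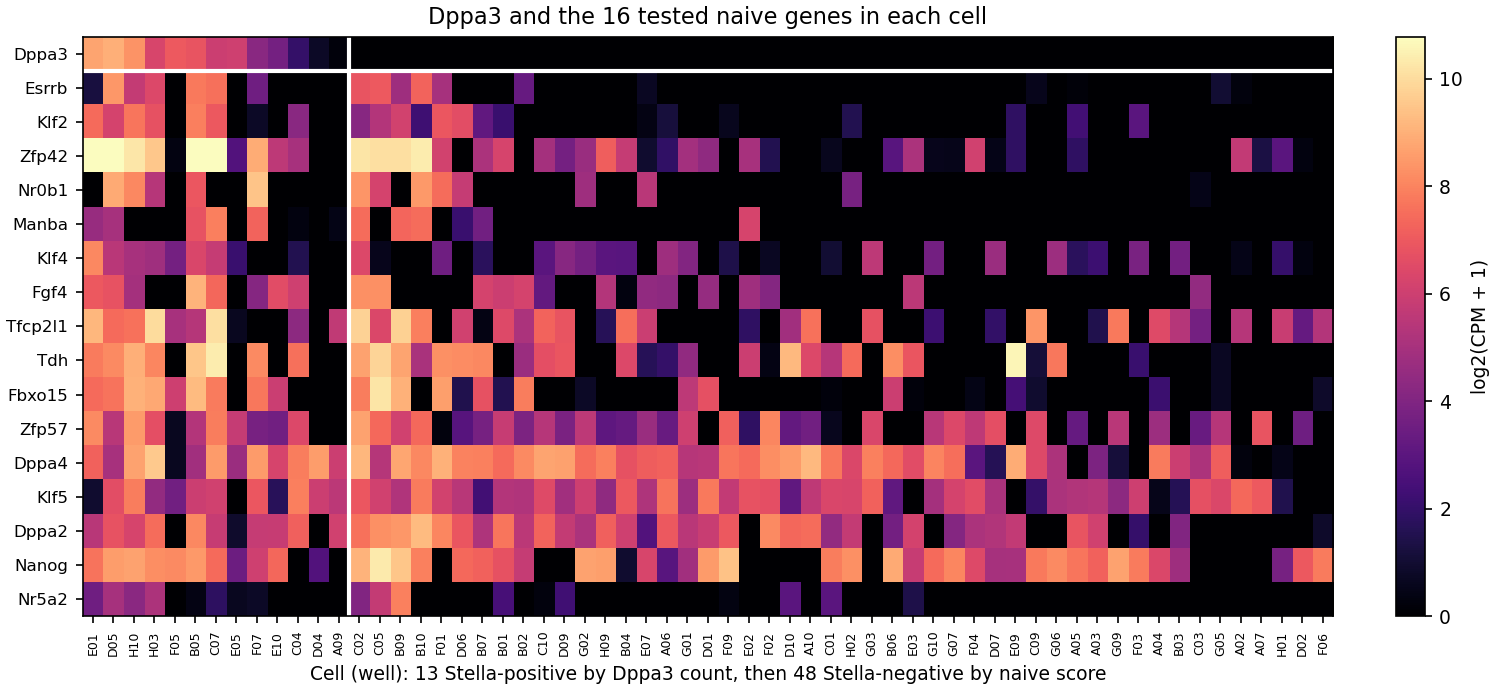
Levels of Dppa3 and the 16 tested naive genes as log2(CPM + 1), in colour, with 1 column per cell: the 13 Stella-positive cells ordered by Dppa3 count on the left, and the 48 Stella-negative cells ordered by naive score on the right. Positive cells had counts for 3 to 16 of the 16 genes (median 14) and negative cells for 3 to 16 (median 8); 4 negative cells at the left of their block look like the brightest positive cells.

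Zfp42, which encodes the naive marker Rex1, is on the minus strand of chromosome 8. It had counts in 11 of 13 positive cells, from 0 to 1755 CPM with a median of 483 CPM, and in 31 of 48 negative cells, from 0 to 1312 CPM with a median of 1.71 CPM. The groups overlapped at both ends, since 4 negative cells exceeded the positive median and 2 positive cells, D04 and A09, had no Zfp42 counts. The fitted log2 difference was 2.72 ± 1.04 (SE) and did not pass (edgeR, unadjusted p = 0.0108, adjusted p = 0.577). Without the 5 cells low in chromosome 14 counts it was 3.14. Levels were split into very high and low: all 11 cells above 400 CPM, 7 positive and 4 negative, stood apart from the rest.

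Esrrb, an orphan nuclear receptor of the naive network, had counts in 7 of 13 positive and 11 of 48 negative cells. Its range was 0 to 345 CPM in positive cells (median 1.38 CPM) and 0 to 151 CPM in negative cells (median 0 CPM), so the top of the positive group lay above every negative cell. The log2 difference was 3.37 ± 1.24, the largest of the naive list (edgeR, unadjusted p = 0.00857, adjusted p = 0.518). Klf2, a Krüppel-like transcription factor that helps hold the naive state, followed the same outline. It had counts in 8 of 13 positive cells, up to 237 CPM with a median of 17.6 CPM, and in 15 of 48 negative cells, up to 120 CPM with a median of 0 CPM. Its difference was 2.99 ± 1.14 (edgeR, adjusted p = 0.577), and 2.37 without the cells low in chromosome 14 counts.

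Nr0b1, which encodes the nuclear receptor Dax1, was found in fewer cells. It had counts in 5 of 13 positive cells, reaching 698 CPM in F07, 459 CPM in D05 and 271 CPM in H10, and in 9 of 48 negative cells, reaching 359 CPM. Its difference of 2.71 ± 1.29 did not pass (edgeR, adjusted p = 0.974). Klf4, Klf2's relative and a reprogramming factor, had counts in 9 positive and 25 negative cells, with medians of 11.8 and 0.320 CPM. The difference of 2.05 ± 1.20 was 0.77 without the 5 cells low in chromosome 14 counts, of which E01 holds the highest Klf4 level of all cells (274 CPM). Fgf4, the growth factor that embryonic stem cells secrete, had a difference of 1.93 ± 1.33, and 0.80 without those cells.

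Tfcp2l1, a transcription factor downstream of LIF, had a difference of 1.49 ± 1.07, or 0.90 without the cells low in chromosome 14 counts, and counts in 10 positive and 29 negative cells. The lysosomal enzyme gene Manba had 2.50 ± 1.43 (7 and 6 cells), Fbxo15 had 1.01 ± 1.31 (9 and 20 cells), and Zfp57, which guards imprints, had 0.79 ± 0.95 (11 and 36 cells). Without the cells low in chromosome 14 counts Fbxo15 was 0.63 and Zfp57 was 0.0055. Esrrb, Nr0b1, Manba and Nr5a2 no longer met the filter and have no value in that setting. Tdh, the threonine dehydrogenase gene of mouse embryonic stem cells, had 1.18 ± 1.14 (8 and 27 cells) although it lies on chromosome 14. Klf5 (0.18 ± 0.68) and Dppa4 (0.22 ± 0.73) were close to 0. The 3 naive genes with negative differences were Nr5a2, a nuclear receptor gene (-0.72 ± 1.44, 8 and 10 cells), Nanog (-0.39 ± 0.96) and Dppa2 (-0.05 ± 0.94), and all 3 were positive in limma-trend (1.53, 0.39 and 0.87). Apart from Esrrb and Nr0b1, none of the genes in this paragraph had an unadjusted p under 0.05.

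**Figure D3:**
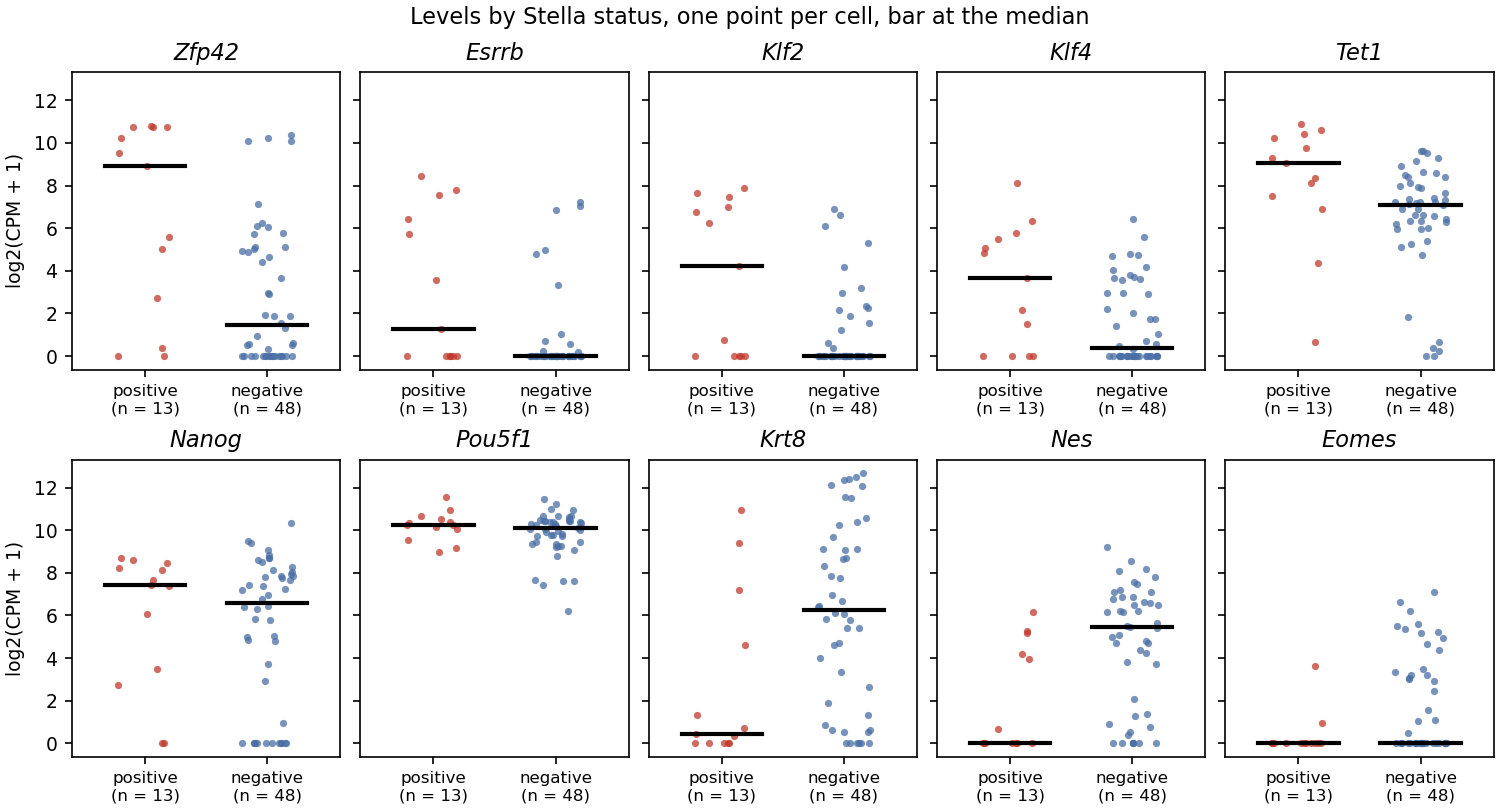
Levels of 10 genes as log2(CPM + 1) in 13 Stella-positive (left of each panel) and 48 Stella-negative cells (right), 1 point per cell, with the median as a bar. Zfp42, Esrrb and Klf2 have a cluster of high positive cells and a few negative ones that overlap it, none above the highest positive cell. Pou5f1 differs little (medians 1232 and 1086 CPM), and Krt8, Nes and Eomes are at or near 0 in most positive cells.

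The Stella-positive cells were not of 1 kind in their naive genes. A naive score, the mean z-score of the 16 tested naive genes without Dppa3 scaled to an SD of 1, ranged from -1.01 to 2.23 in positive cells (median 1.08) and from -1.21 to 2.60 in negative cells (median -0.34). Above a score of 1 were 11 cells, 7 positive and 4 negative, and up to 1 were 6 positive and 44 negative cells. The limit of 1 was set after the scores were seen, in their widest gap, from 0.698 to 1.08. The high positive cells were D05 (2.23), B05 (2.16), H10 (2.16), C07 (2.15), H03 (1.80), E01 (1.61) and F07 (1.08), and the high negative cells were C02 (2.60), C05 (1.95), B09 (1.85) and B10 (1.36). All 4 positive cells low in chromosome 14 counts, E01, H10, B05 and H03, were among the 7.

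**Figure D4:**
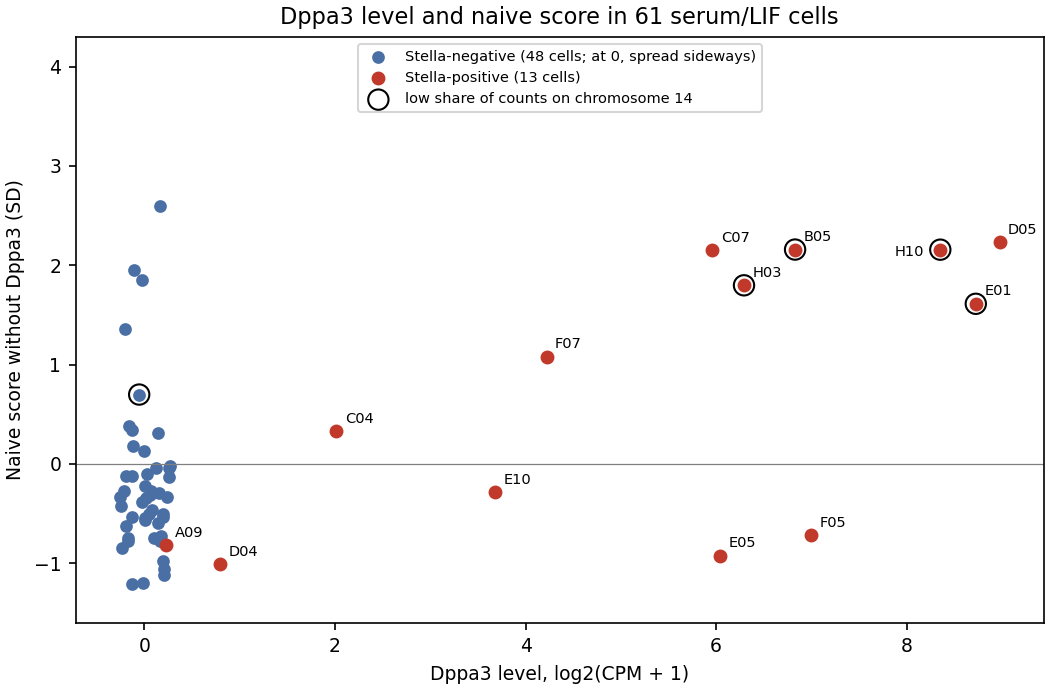
Naive score without Dppa3 (SD) against the Dppa3 level as log2(CPM + 1) in 61 serum/LIF cells, 1 point per cell, with negative cells at 0 spread sideways and the 5 cells low in chromosome 14 counts ringed. The cells in F05 and E05 had Dppa3 above 50 CPM with naive scores of -0.72 and -0.92, and 4 negative cells had scores above 1.

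High Dppa3 did not always go with the other naive genes. The cell in F05 had Dppa3 at 126 CPM, the fourth highest level, but Zfp42 at 0.296 CPM and no Esrrb or Klf2 counts. In the same cell Krt8, a keratin of simple epithelia, was at 673 CPM and T, the primitive streak gene Brachyury, at 172 CPM, while Nanog was at 281 CPM. The cell in E05 had Dppa3 at 64.9 CPM with Zfp42 at 5.67 CPM, no Esrrb or Klf2 counts, and Pou5f1 at 3029 CPM, the highest of all cells. Among cells with little Dppa3, F07 (17.6 CPM) had Zfp42 at 483 CPM, and E10 (11.8 CPM) had Zfp42 at 46.4 CPM and Krt18 at 91.8 CPM. The cells D04 and A09, at the threshold, had no Zfp42, Esrrb or Klf2 counts. D04 had T at 806 CPM, the highest of all cells, and A09 had Krt8 at 1999 CPM.

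The reverse case was found in 4 Stella-negative cells with high naive genes. Zfp42 was at 1197 CPM in C02, 1080 CPM in C05, 1081 CPM in B09 and 1312 CPM in B10, and Esrrb was between 26.5 and 151 CPM in these cells. Each had 0 Dppa3 counts, which by counting error alone allows up to 0.696 CPM in C02, 0.742 CPM in C05, 0.829 CPM in B09 and 0.666 CPM in B10. These limits are far below the Dppa3 levels of the 7 positive cells with similar Zfp42, the lowest of which was 17.6 CPM. They do not cover transcripts lost before sequencing, which were not measured. B10 was also the cell with the fewest genes detected, 5317.

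When the naive score was added as a covariate, most naive genes had negative differences. The median of the 16 genes was then -0.66, with 4 of 16 positive, and Esrrb (-0.93), Klf2 (-1.03) and Nr0b1 (-1.58) turned negative. The score contains these genes, so this fit holds their shared level constant by construction. No gene of the whole table passed in that fit (0 genes called, 446 at an unadjusted p under 0.05).

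None of the tested neighbours of Dppa3 on chromosome 6 had an unadjusted p under 0.05. Gdf3, which encodes a TGF-beta family ligand, lies upstream of Dppa3 (122605403 to 122610087), and Nanog (122707489 to 122714633) and the glucose transporter gene Slc2a3 (122727809 to 122801640) lie downstream. Nanog, the homeobox factor of the inner cell mass, had counts in 11 of 13 positive cells, from 0 to 414 CPM with a median of 170 CPM, and in 36 of 48 negative cells, from 0 to 1298 CPM with a median of 97.1 CPM. The ranges overlapped almost entirely, with 7 negative cells above the highest positive cell. The log2 difference was -0.39 ± 0.96 in edgeR and 0.39 in limma-trend, so its sign depended on the tool. Gdf3 had 0.17 ± 0.70 and Slc2a3 had -0.83 ± 0.47, with counts in every cell of both groups for Slc2a3. Of 13 genes listed for this neighbourhood, among them the pseudogene Dppa3-ps on chromosome X, 4 passed the filter and 0 were called.

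General pluripotency factors mark embryonic stem cells of either state, and their median difference lay nearer to 0. Of 13 tested genes 8 had positive differences, 0 had an unadjusted p under 0.05, and the median was 0.24. Pou5f1, which encodes Oct4, had counts in all 61 cells, from 498 to 3029 CPM in positive and 74.1 to 2812 CPM in negative cells, so both groups carry the defining marker of the labelled cell type. Its difference was 0.24 ± 0.26. Sox2, Oct4's partner, had 0.54 ± 0.74, with counts in 11 of 13 and 43 of 48 cells. Dppa5a, an RNA-binding protein gene of embryonic stem cells, had medians of 3970.0 CPM and 659 CPM, with maxima of 9334 CPM and 11197 CPM, and a difference of 0.66 ± 0.85 in edgeR and 2.25 in limma-trend. Trim28, a corepressor of retroelements, had 0.63 ± 0.35.

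Genes of DNA methylation are listed because Stella acts on this pathway. Of 17 tested genes 9 had positive differences, with a median of 0.44, and 1 was higher at an unadjusted p under 0.05, against 1.15% of all tested genes. That gene was Tet1, which oxidises methylcytosine and lies on chromosome 10. It had counts in all 13 positive cells, from 0.591 to 1924 CPM with a median of 534 CPM, and in 46 of 48 negative cells, from 0 to 792 CPM with a median of 137 CPM. Only 5 negative cells exceeded the positive median. The mean was 692 ± 638 CPM against 200 ± 210 CPM, and the log2 difference of 1.68 ± 0.60 did not pass (edgeR, unadjusted p = 0.00731, adjusted p = 0.493). Without the cells low in chromosome 14 counts it was 1.41. By cell, Tet1 was highest in the positive cells F07 (1924 CPM), B05 (1551 CPM), C07 (1376 CPM) and H10 (1220 CPM), all with a naive score above 1. Among positive cells it was lowest in F05 (0.591 CPM).

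None of the maintenance and de novo enzymes had an unadjusted p under 0.05. Uhrf1, which recruits Dnmt1 to replicating DNA, had medians of 182 CPM in positive and 294 CPM in negative cells, and a difference of -0.35 ± 0.49. Dnmt1, the maintenance methyltransferase, had 0.44 ± 0.63, and 1.43 in limma-trend but -0.78 in plate rows A to D alone. The de novo methyltransferases Dnmt3a and Dnmt3b had 0.65 ± 0.98 and -0.21 ± 0.63, and their cofactor Dnmt3l had 0.65 ± 1.50. In limma-trend Dnmt3b was 1.20. Tet2, a further methylcytosine oxidase, had 0.92 ± 1.23, or 2.81 in limma-trend, and Uhrf2, a relative of Uhrf1, had -1.86 ± 1.14. Neither of these had an unadjusted p under 0.05. The 13 tested genes of H3K9 methylation, the histone mark that Stella binds, had a median of -0.01 and 0 at an unadjusted p under 0.05.

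Germ cell genes were examined because Stella marks primordial germ cells. Of 11 tested genes 9 had positive differences, with a median of 0.77, and 2 were higher and 1 was lower at an unadjusted p under 0.05. Over all tested genes 46.5% of differences were positive, 1.15% were higher at that p and 3.87% were lower. Tdrd12, a piRNA pathway gene, had counts in 7 of 13 positive and 12 of 48 negative cells and a difference of 2.65 ± 1.27. Tex19.1, a germline gene that restrains transposons, had counts in 7 and 15 cells and 2.68 ± 1.31. On the lower side Ddx4, the germ cell RNA helicase Vasa, had counts in 4 and 25 cells and -3.24 ± 1.57. The adjusted p of the 3 genes was between 0.974 and 0.980, so none passed. Ddx4 could not pass the filter without negative cells, so its direction is not read as a property of the positive cells. Kit, the receptor of stem cell factor, had counts in 5 positive and 16 negative cells and a difference of 1.67 ± 1.70, or 0.56 without the cells low in chromosome 14 counts. All 5 Kit-bearing positive cells were among the 7 with a naive score above 1. The surface proteins Ifitm1 and Ifitm3, used to mark germ cell precursors, had 0.77 ± 0.66 and 0.67 ± 0.76. Of early germ cell regulators, Prdm14 had counts in 0 of 13 positive and 2 of 48 negative cells and Prdm1 in 1 and 8, and neither passed the filter.

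Genes of the formative and primed states, which follow the naive state in development, had no shared direction. Of 17 tested genes 7 had positive differences, 0 had an unadjusted p under 0.05, and the median was -0.21. The keratins Krt8 and Krt18 had the most negative differences, -2.72 ± 1.46 and -2.49 ± 1.36. Krt8 had a median of 0.336 CPM in positive and 75.7 CPM in negative cells, with maxima of 1999 and 6589 CPM. Among positive cells Krt8 was at 1999 CPM in A09, 673 CPM in F05, 146 CPM in C04 and 23.7 CPM in E10, none of which had a naive score above 1, and at no more than 1.54 CPM in the others. Otx2, a homeobox factor of the primed state on chromosome 14, had counts in 3 and 19 cells and -1.51 ± 1.59, or -3.62 without the cells low in chromosome 14 counts. Pim2 had -1.43 ± 1.03, and Etv5, a target of FGF signalling, had 0.81 ± 0.51.

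Among mesendoderm genes, which mark the primitive streak and its descendants, Eomes, 1 of 7 tested, was lower at an unadjusted p under 0.05, as were 3.87% of all tested genes. It had counts in 2 of 13 positive cells, at most 11.2 CPM, and in 23 of 48 negative cells, at most 138 CPM. Its difference was -3.82 ± 1.66 (edgeR, adjusted p = 0.792). Eomes could not pass the filter without negative cells, so its direction is not read as a property of the positive cells. The 7 tested genes had a median of -0.07, and T had counts in 5 and 35 cells with a difference of -0.96 ± 1.29, or -2.92 in limma-trend.

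**Figure D5:**
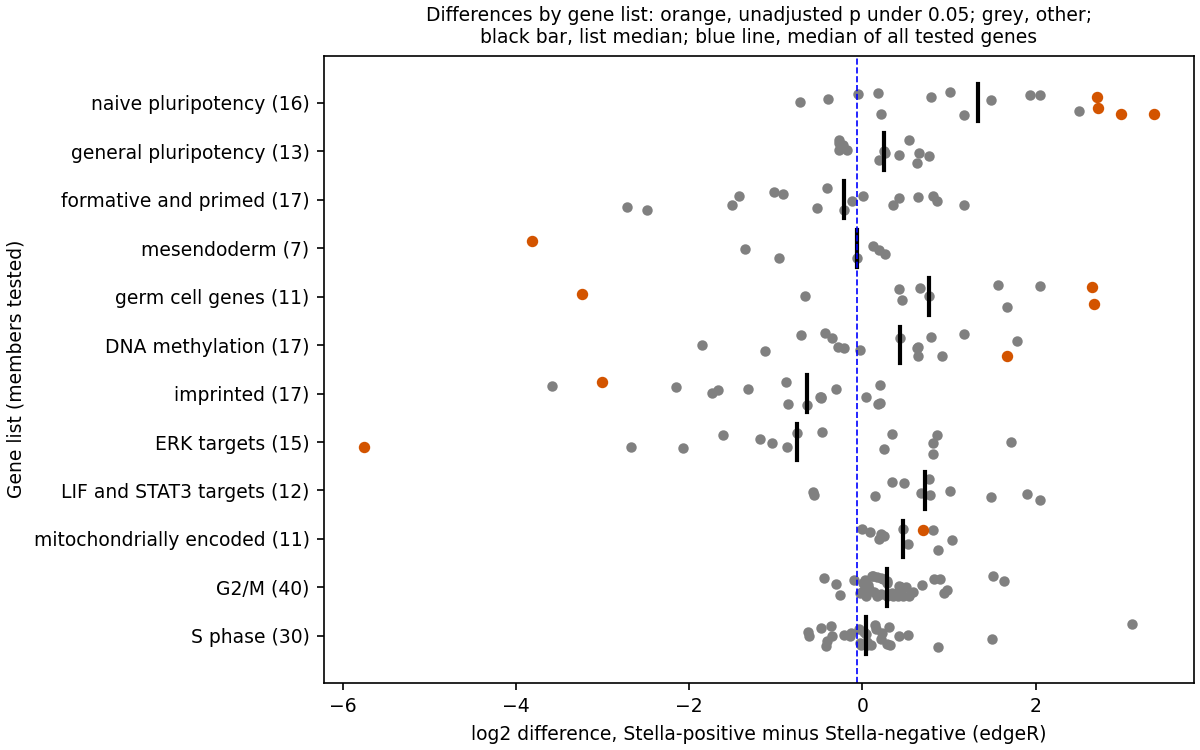
Log2 differences, Stella-positive minus Stella-negative, of the tested members of 12 gene lists, 1 point per gene, with the list median as a black bar and the median of all tested genes (-0.06) as a dashed line. Points in orange had an unadjusted p under 0.05 in edgeR, and no point had an adjusted p under 0.05. The naive list has the highest median, 1.33, in a fit that includes the 5 cells low in chromosome 14 counts.

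Markers of other cell types were present in both groups, and 4 tested genes among them were lower in positive cells at an unadjusted p under 0.05, as were 3.87% of all tested genes. In the neurectoderm list, with 4 tested genes, these were Nes, which encodes the filament protein nestin (counts in 6 and 41 cells, at most 70.4 and 587 CPM, difference -3.02 ± 1.12), and the Notch target Hes1 (4 and 34 cells, -2.89 ± 1.35). The other tested genes were Pax6, an eye and neural factor, which had counts in 5 and 11 cells and a difference of 1.68 ± 1.79, and Tubb3, a neuronal tubulin, with 4 and 15 cells and -1.02 ± 1.99. Without the cells low in chromosome 14 counts Pax6 was -1.65 and Tubb3 -1.62. The defining genes Sox1, Hes5, Pax3, Neurog1 and Neurog2 were at 0 in all cells. The 12 neurectoderm genes together took 3.78 to 202 CPM in positive and 0 to 613 CPM in negative cells. Of 4 tested trophectoderm genes, 2 were lower at that p, Eomes and Gata3, the latter with counts in 1 and 19 cells. Nes, Hes1, Eomes and Gata3 each had counts in fewer than 10 positive cells, so none could pass the filter without negative cells. Their direction is therefore not read as a property of the positive cells. Tfap2c was higher by 2.05 ± 1.71 (6 and 17 cells), but -0.13 without the cells low in chromosome 14 counts, Cdx2 was at -0.07 ± 2.2 (2 and 16 cells), and Elf5 was at 0 in all cells. The 10 trophectoderm genes took 0 to 339 CPM in positive and 0 to 590 CPM in negative cells.

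Fibroblast and primitive endoderm genes were also found in both groups. All 3 tested fibroblast genes, among them Vim (-1.0 ± 1.28) and Fn1 (-1.14 ± 0.91), had negative differences with no unadjusted p under 0.05, Postn was at 0, and the 14 genes took 0.850 to 1033 CPM in positive and 3.10 to 5716 CPM in negative cells. The 7 tested primitive endoderm genes had a median of 0.14, and the 16 genes took 157 to 1840 CPM and 174 to 2890 CPM. None of 14 measured 2-cell-like genes passed the filter, and 7 were at 0 in all cells. The part that such cells or states play in the differences was not tested.

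Imprinted genes are expressed from the copy of a single parent. Of 17 tested, 13 had negative differences, with a median of -0.64, and 1 was lower at an unadjusted p under 0.05, a share near the 3.87% of all tested genes, so nothing is read from it for the list. The gene was Ndn, a paternally expressed growth regulator, with counts in 5 and 25 cells and -3.01 ± 1.48 (edgeR, adjusted p = 0.983). Ndn could not pass the filter without negative cells, so its direction is not read as a property of the positive cells. Peg3 had -1.74 ± 1.02 and Grb10, an adaptor of insulin signalling, -0.86 ± 0.69. Of 15 targets of ERK signalling, which drives exit from the naive state, 9 had negative differences, with a median of -0.76. Ier3 was the member lower at an unadjusted p under 0.05, against 3.87% of all tested genes, with counts in 1 and 18 cells (-5.76 ± 1.85, edgeR, adjusted p = 0.297). Ier3 could pass the filter only through the negative cells, so its direction is not read as a property of the positive cells. Spry4, a feedback inhibitor of the pathway, had -2.67 ± 1.37, and the phosphatase gene Dusp6 -1.18 ± 0.73. Of 12 targets of LIF and STAT3, the signal that sustains these cultures, 10 had positive differences, against 46.5% of all tested genes. The 12 had a median of 0.72, with 0 at an unadjusted p under 0.05. Klf4, Fbxo15 and Tfcp2l1, all with positive differences, are also members of the naive list, so the lists are not separate.

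No tested gene of the S phase and G2/M lists had an unadjusted p under 0.05. The 30 tested S phase genes had a median of 0.05 and the 40 tested G2/M genes a median of 0.28. Differences were above 0 in 17 of 30 and 35 of 40, against 46.5% of all tested genes. Of 11 tested mitochondrially encoded genes, 10 had positive differences, against 46.5% of all tested genes, with a median of 0.47. Among them mt-Nd1, a subunit of respiratory complex I, was higher at an unadjusted p under 0.05, as were 1.15% of all tested genes. Its median was 4308 CPM in positive and 2717 CPM in negative cells (difference 0.70 ± 0.24, edgeR, adjusted p = 0.441).

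Of 48 genes with an adjusted p under 0.1, all were lower, and 44 of them had counts in 0 or 1 of the 13 positive cells. Such genes could pass the filter only through the negative cells, so their direction follows from that choice and is not read as a property of the positive cells. The following were singled out after their values were seen, and the first 5 are of this kind. Slc25a24, a mitochondrial carrier gene, had counts in 0 positive and 23 negative cells, Mapk13, a p38 kinase gene, in 0 and 19, and Cd44, the hyaluronan receptor gene, in 0 and 15. Ppp2r3a and Flywch2 had counts in 1 positive cell each and in 23 and 26 negative cells. Zc3h15, by contrast, was detected in all 61 cells. It had a mean of 107 ± 56.8 CPM in positive and 226 ± 137 CPM in negative cells and a difference of -1.18 ± 0.31 (edgeR, adjusted p = 0.0949, and DESeq2, adjusted p = 0.00523). On the higher side, the splicing gene Snrpd2, also detected in all cells, had 0.47 ± 0.16 (edgeR, adjusted p = 0.388). Jam2, a junctional adhesion gene, had counts in 7 and 10 cells and 5.24 ± 1.67 (edgeR, adjusted p = 0.284), and -1.50 with the naive score as a covariate.

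Within the 13 positive cells, the amount of Dppa3 was then set against the other genes. The rule used the same counts, but only whether they were 0 or not, so the amount above 0 did not decide which cells entered. Slopes are log2 changes of a gene per unit of log2(CPM + 1) of Dppa3. None of 4097 genes passed (0.0%, edgeR, smallest adjusted p = 0.999), and limma-trend also called 0 (320 at an unadjusted p under 0.05). In edgeR 119 genes (2.90%) had an unadjusted p under 0.05, 80 with positive (1.95%) and 39 with negative slopes (0.952%), and 53.9% of all slopes were above 0. Among naive and pluripotency genes, Zfp42 had a slope of 1.37 ± 0.51 (unadjusted p = 0.0178 in edgeR), Nanog 0.81 ± 0.33 (unadjusted p = 0.0298 in edgeR) and Dppa5a 0.87 ± 0.39. Sox2 had 0.96 ± 0.46, and Pou5f1 was level at 0.03 ± 0.07. All these slopes include D04 and A09, the positive cells with the least Dppa3. Neither had Zfp42 counts, and their Nanog levels were 5.69 and 0 CPM. Esrrb, Klf2 and Klf4 were seen in too few positive cells for this fit.

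By the smallest p, the 5 genes with positive slopes were Kdm5b (0.90 ± 0.21), a histone demethylase gene, the proteasome subunit gene Psmb3 (0.20 ± 0.05), Camta1 (1.07 ± 0.29), Rcc2 (0.40 ± 0.11) and the chromatin remodelling gene Actl6a (0.45 ± 0.14). The 5 with negative slopes were Stt3a (-0.34 ± 0.09), a glycosylation gene, the RNA surveillance gene Upf1 (-0.70 ± 0.20), Cks1b (-0.21 ± 0.06), Glud1 (-0.34 ± 0.10), which lies on chromosome 14, and Fstl1 (-0.27 ± 0.08). None of these slopes passed the adjusted threshold.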

How the data were processed

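The deposited table holds raw counts per gene for 61 serum/LIF cells, as whole numbers. The submitters' processing notes name the GRCm38 build, GSNAP 2014-02-28, DESeq2, bedtools 2.19.1 and SAMtools 0.1.18, without the counting rule or strand. Reads carry no molecular identifiers in the labels, so intervals cover counting error only. The deposited scaled table was not used, because within each cell its values carry 61 different ratios to the raw counts. Symbols were found for 34880 of 36205 genes, with coordinates from GENCODE M21; 95 ERCC spike-in rows were left out.

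Groups followed the Dppa3 count. Genes with 10 counts or more in 10 cells or more were tested in edgeR 4.0.16 (TMM, quasi-likelihood, share of genes detected as covariate, Benjamini-Hochberg); slopes on the Dppa3 level used the same filter within positive cells. SEs are the absolute difference divided by the square root of F. Cell measures used 100000 permutations, two-sided. DESeq2 1.42.0 and limma 3.58.1 (R 4.3.3) were alternatives. The procedures were tested on simulated counts, where edgeR and DESeq2 gave more false calls than their threshold allows. Those calls were not split by how sparse a gene was. Named genes are called genes, tested members of the pluripotency, neighbourhood, methylation, germ cell, formative and mesendoderm lists, members of other lists past the threshold, and the 5 smallest p-values per direction for slopes; members of other lists named at an unadjusted p, and those described as singled out, were added after their values were seen. The members, lists and tests were chosen with earlier results of these data known.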

Additional observations from a re-analysis of the deposited data

How the results depend on the processing

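The count of 0 genes between Stella-positive and Stella-negative cells held in the edgeR alternatives run with a filter and in limma-trend, including each of the 13 positive cells left out in turn (lowest and highest count 0). The exceptions were the DESeq2 Wald test, with 102 genes, and edgeR without a filter on low counts, with 4509 genes (1001 higher, 3508 lower), of which 4315 failed the filter and 4059 had counts in 0 or 1 positive cells. Without the filter Esrrb, Klf2, Tet1, Snrpd2, Jam2, mt-Nd1 and Zc3h15 were among the genes called. Slopes within positive cells gave 0 genes in every alternative run.

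Taking positive cells at 10 or more Dppa3 counts gave 0.880 points for the mitochondrial and -0.695 points for the chromosome 14 difference, both still past the threshold. The mitochondrial difference no longer passed without B10 and F07 (0.452 points), without the cells low in chromosome 14 counts (0.424), in plate rows A to D (0.531) and in rows E to H (0.638). The chromosome 14 difference no longer passed without the low cells (-0.224 points) and in rows A to D (-0.297). Without the low cells the difference in genes detected was 139 instead of -313. The cause was not tested. The settings that leave out cells or plate rows have fewer cells, while the setting at 10 or more Dppa3 counts keeps every cell.

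Over 73 named genes and 16 alternatives, 1105 values gave 1036 on the same side, 23 past the threshold and 46 reversed. With the naive score as covariate the list's median was -0.66, with Esrrb -0.93, Klf2 -1.03, Nr0b1 -1.58, Tfcp2l1 -0.37, Manba -1.15, Tdh -1.98, Zfp57 -0.40, Sox2 -0.98, Dppa5a -0.82, Tet2 -0.37, Gdf3 -0.54, Tdrd12 -0.42, Kit -0.71, Klf5 -0.30, Dppa4 -0.30, Pax6 -0.32, Dusp6 0.23 and Jam2 -1.50. In rows E to H, Tdh was -0.32, Nanog 0.0655, Klf5 -0.39, Dnd1 -0.51 and Ifitm3 -0.16; in rows A to D, Dnmt1 was -0.78, Gdf3 -0.0847, Dppa2 0.23, Dppa4 -0.0695, Tfap2c -0.58 and Vim 0.33. In limma-trend Nanog was 0.39, Dnmt3b 1.20, Dppa2 0.87, Nr5a2 1.53 and Klf5 -0.0718, and in DESeq2 Cdx2 was 0.0936. With S and G2/M scores Dnmt3l was -0.0061, Nr5a2 0.0396 and Cdx2 1.25. Without a covariate Nr5a2 was 0.0815 and Tubb3 0.69. Without the cells low in chromosome 14 counts Tfap2c was -0.13, Cdx2 0.17 and Pax6 -1.65. Dppa2 was 0.0961 with positive cells at 10 or more Dppa3 counts, 0.0718 without those of 1 to 9, and 0.0903 without B10 and F07. The mitochondrial covariate, the cells left out in turn, and the chromosome 14 and plate row settings for slopes and cell measures were added after seeing the data.

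No paired analysis was possible because each sample is 1 cell and the groups share no replicate number. Depth limits what a count of 0 shows: up to 0.442 to 1.24 CPM of Dppa3 in a negative cell by counting error alone, without transcripts lost before sequencing.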
